A study of Mus musculus with 7 samples.

Results

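The peroxisome genes described here are 49 genes of peroxisome assembly and of the reactions that peroxisomes carry out, chosen by name. A gene was measured where the array annotation gave its symbol alone to a probe set, and the probe set with the highest mean stood for the gene. That held for 48 of the 49 among 19938 genes tested, each with a single probe set, and Prdx5 was not analysed here. The set was drawn up with earlier results of these arrays known, to ask whether a low value of Ehhadh in PrlR+/- islets was shared by other peroxisomal genes. Pancreatic islets were taken on day 15 of pregnancy from 4 female mice heterozygous for a prolactin receptor null allele (PrlR+/-) and 3 wild-type females (PrlR+/+), both on the C57BL/6 background and set up for mating when 12 to 16 weeks old. An Affymetrix array was hybridised for each mouse alone, and all values below are log2 values as deposited. Every mouse was pregnant, so no non-pregnant level stands beside these values. The heterozygous mice keep an intact allele, and the cell type in which receptor loss acts was not separated, because whole islets were lysed. In such bulk tissue, fewer cells of a type and less RNA per cell cannot be told apart.

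Peroxisomes shorten fatty acids that mitochondria handle poorly, such as very long and branched chains, and pass the products on for further oxidation. Their oxidases release hydrogen peroxide, which catalase removes, and they also begin the synthesis of ether lipids. Proteins called peroxins insert the membrane proteins, import the enzymes from the cytosol and divide the organelle. Many of the genes are known targets of the fatty acid receptor PPAR-alpha in rodent liver. Beta cells are known for a low capacity to remove peroxide. The prolactin receptor signals through STAT5 and is known to support the adaptation of beta cells to pregnancy.

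Beta cell genes were strongly represented on every array. The mean of 8 beta cell markers ranged from 11.89 to 12.15 over the PrlR+/- mice and from 12.03 to 12.2 over the PrlR+/+ mice, near the top of a measured range of 1.73 to 13.97. Pairs of arrays correlated across genes at r between 0.9883 and 0.9974. The level of the targeted gene itself was not analysed here and gave no check of the labels. Exocrine transcripts were also strongly represented on every array, with 9 acinar markers averaging 12.27 to 12.72 in PrlR+/- and 12.19 to 12.6 in PrlR+/+ mice. Their mean lay above that of the beta cell markers in every mouse but PrlR+/+ 3, at 12.19 against 12.2. The 4 hepatocyte markers, of another tissue rich in peroxisomes, averaged 6.055 to 6.242 in PrlR+/- and 5.992 to 6.315 in PrlR+/+ mice. The array of PrlR+/- 4 stood apart: its genes had the narrowest spread, with quartiles of 5.82 and 8.97, and limma gave it the lowest array weight, 0.293 against 0.54 to 2.74 for the others. Leaving it out changed the sign or moved the size of the difference by over 1.5 times for 28 of the 48 members, and values without it stand beside those members.

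No peroxisomal gene passed the test for a difference between the genotypes. By limma with Benjamini-Hochberg adjustment over all genes, 0 of 48 members had an adjusted p under 0.05, against a background of 0% of all 19938 genes, and the smallest adjusted p was 0.99. At an unadjusted p under 0.05 there was 1 member, Ehhadh, or 2.08% of the members, where the background was 2.2% of all genes in either direction and 1.13% on the lower side. Every PrlR+/- value lay below every PrlR+/+ value for 2 members, Ehhadh and Amacr, or 4.17%, against 2.24% of all genes whose groups were separate either way and 1.21% with PrlR+/- below; the opposite order occurred for 0 members. The low value of Ehhadh was known when the set was drawn up, so it adds no support to these shares. Among the 47 other members, 0 had an unadjusted p under 0.05 and 1 had separate groups. Differences are PrlR+/- minus PrlR+/+. They were negative for 33 members and positive for 15, with a median of -0.0808 and quartiles of -0.17 and 0.0308. Among all genes the median was 0.0142 and 43.7% of differences were negative.

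The sign of small differences depended on how bright a gene was. Above the 40th percentile of gene means, a level of 6.651, 51.2% of all genes had negative differences, and below it 32.4% did. Of the members, 40 lay above that level and also passed the other filter on dim genes. The 8 that lay below, Acox2, Acaa1b, Acot4, Far2, Dao, Pipox, Hao1 and Pxmp2, included 7 of the 15 members with a positive difference. Such dim values may not reflect transcript levels.

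The arrays bounded most of the differences closely. For 39 of 48 members, or 81.2%, the 95% interval of the difference lay within 1.5-fold in both directions, as it did for 89.9% of all genes. These 39 include all 8 dim members, whose narrow intervals may not bound a difference in transcript levels. The 9 members with a wider interval were Ehhadh, Decr2, Abcd3, Crot, Nudt7, Nudt12, Pex2, Pex7 and Pex19. Nudt7, which hydrolyses coenzyme A, had the widest interval of these, -0.59 to 0.72.

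**Figure D1:**
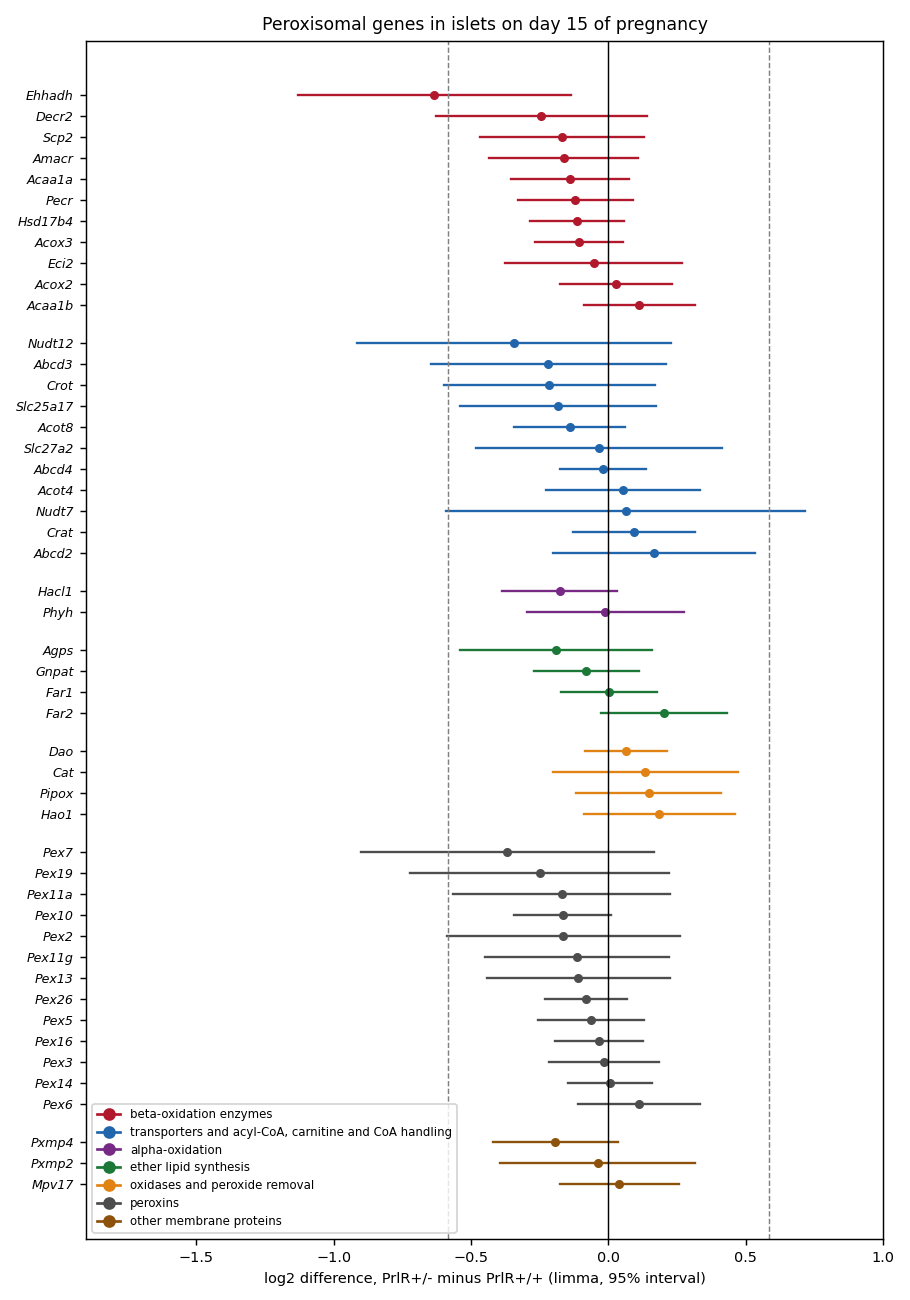
Log2 difference between PrlR+/- and PrlR+/+ islets (x axis) for the 48 measured peroxisomal genes (rows, grouped and coloured by role); points are limma estimates, bars are 95% intervals and dashed lines mark 1.5-fold. The interval of Ehhadh ends at -0.14 on its upper side, while those of the 47 other genes include 0.

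Ehhadh encodes the L-bifunctional enzyme, which carries out the hydratase and dehydrogenase steps of peroxisomal beta-oxidation and is a classic PPAR-alpha target in rodent liver. Its log2 value (probe set 10438575) was 9.71, 8.91, 9.67 and 9.59 in PrlR+/- 1 to 4, against 9.84, 10.29 and 10.18 in PrlR+/+ 1 to 3. The groups did not overlap, PrlR+/- 2 lay far below its group, and the gap between the nearest mice of the 2 genotypes was narrow. PrlR+/- islets averaged 9.47 ± 0.38 (SD, n = 4), against 10.10 ± 0.23 (SD, n = 3) for PrlR+/+ islets. The difference was -0.63 ± 0.21 (SE), a ratio of 0.645 with a 95% interval of 0.457 to 0.910 (limma, unadjusted p = 0.0192, adjusted p = 0.99). Without PrlR+/- 2 the difference was -0.447, and over the 7 fits that each left out 1 mouse it ranged from -0.765 to -0.447. The unadjusted p was 0.0726 without PrlR+/+ 2 and 0.0627 without PrlR+/+ 3. PrlR+/- 2 also had the highest mean of all mice for the acinar, duct, endothelial, macrophage, fibroblast, alpha and delta cell markers, its acinar mean being 12.72, and their part in the Ehhadh value was not tested. With the acinar mean as a covariate the difference was -0.564 (limma, unadjusted p = 0.0418).

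The sequence around the Ehhadh start site is shown because it is the member whose groups did not overlap by more than the rounding of the values. It was searched, with those of the other members, for the letters that STAT5 and PPAR-alpha are known to prefer. The RefSeq promoter window (GRCm38.p6, chr16:21787785-21788084, minus strand) runs from 250 bases before to 50 bases after the start. Capitals mark GGGCGG, the box bound by Sp1, and CCAAT, each on either strand.
Ehhadh: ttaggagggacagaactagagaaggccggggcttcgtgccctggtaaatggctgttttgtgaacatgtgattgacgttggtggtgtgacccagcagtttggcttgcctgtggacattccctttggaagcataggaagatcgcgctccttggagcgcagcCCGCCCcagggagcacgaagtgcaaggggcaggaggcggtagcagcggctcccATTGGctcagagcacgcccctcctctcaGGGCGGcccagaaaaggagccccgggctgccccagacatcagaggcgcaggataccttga

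The STAT motif TTCNNNGAA and AGGTCA, the unit that PPAR elements repeat with 1 base between the copies, were searched on both strands, and neither occurred in the Ehhadh window. Of 47 windows found for 39 members, 1 held TTCNNNGAA, or 2.13%, against 8.3% of all 32851 windows. It was the second window of Pex16, whose peroxin product takes part in membrane protein insertion (GRCm38.p6, chr2:92374989-92375288, plus strand), shown with the motif in capitals. Pex16 ranged from 9.68 to 9.82 over the PrlR+/- mice and from 9.70 to 9.87 over the PrlR+/+ mice, so the groups overlapped.
Pex16: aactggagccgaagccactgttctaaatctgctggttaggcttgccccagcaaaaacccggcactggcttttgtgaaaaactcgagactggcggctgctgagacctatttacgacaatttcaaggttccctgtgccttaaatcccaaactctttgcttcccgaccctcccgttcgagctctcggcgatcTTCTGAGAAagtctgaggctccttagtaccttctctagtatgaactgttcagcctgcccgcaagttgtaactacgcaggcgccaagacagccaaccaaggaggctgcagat

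The repeated PPAR element occurred in 0 of the 47 windows and in 13 of all 32851 windows, or 0.0396%. An exact repeat this rare was to be expected in none of the member windows, so its absence carries no information. Variant copies and sequence outside the windows were not searched. A single AGGTCA, which the repeat also contains, occurred in 7 of the 47, those of Acot4, Cat, Dao, Pex11g, Phyh, Scp2 and Slc27a2, or 14.9% against 16.3% of all. GGGCGG was found in 66% of member windows and 35.7% of all windows, and CCAAT in 42.6% and 37.4%. These are matches of letters, and binding was not measured.

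The other beta-oxidation enzymes had small differences. Of the 11 enzymes, Ehhadh included, 9 had a negative difference, the median was -0.12, and 0 passed. Without PrlR+/- 4 the median of the 11 was -0.0767. Hsd17b4, the D-bifunctional enzyme that works on very long and branched chains at the same steps as Ehhadh, was at 8.59, 8.59, 8.51 and 8.50 in PrlR+/- 1 to 4, against 8.62, 8.80 and 8.56 in PrlR+/+ 1 to 3. Its groups overlapped, and its difference of -0.11 had a 95% interval of -0.28 to 0.06. In contrast to Ehhadh, Hsd17b4 had equal values in PrlR+/- 1 and PrlR+/- 2.

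Amacr, the racemase that lets branched-chain and bile acid intermediates enter beta-oxidation (probe set 10423090), was at 8.47, 8.39, 8.44 and 8.01 in PrlR+/- 1 to 4, against 8.48, 8.48 and 8.51 in PrlR+/+ 1 to 3. The groups were separate by no more than the last decimal of the deposited values, and PrlR+/- 4 alone was well below the rest. The difference was -0.16 ± 0.12 (SE), and -0.0567 without PrlR+/- 4. Amacr lies on chromosome 15, as the targeted gene does, with 7 protein-coding genes between them in the RefSeq annotation. Of the members, 3 are on this chromosome, Abcd2 and Slc25a17 being the others, and any effect of the targeted allele on linked genes cannot be told apart from one of genotype.

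Acox3, an oxidase that starts the oxidation of branched chains, was at 8.31, 8.16, 8.24 and 8.30 in PrlR+/- 1 to 4, against 8.31, 8.46 and 8.31 in PrlR+/+ 1 to 3. PrlR+/- 1 equalled 2 of the PrlR+/+ mice, and the difference was -0.11 ± 0.07 (SE). The thiolase gene Acaa1a and the thiolase and carrier protein gene Scp2 differed by -0.14 ± 0.09 and -0.17 ± 0.13, and Scp2 by -0.0767 without PrlR+/- 4. Decr2, Pecr and Eci2, which reduce or shift double bonds of unsaturated chains, differed by -0.24 ± 0.16, -0.12 ± 0.09 and -0.05 ± 0.14. Without PrlR+/- 4, Decr2 was at -0.09 and Pecr at -0.0533. Acaa1b and Acox2, both below the level set for dim genes, had positive differences of 0.11 ± 0.09 and 0.03 ± 0.09, and Acox2 was at -0.04 without PrlR+/- 4. Acaa1a and Acaa1b are close relatives, and the same probes may bind the transcripts of both.

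**Figure D2:**
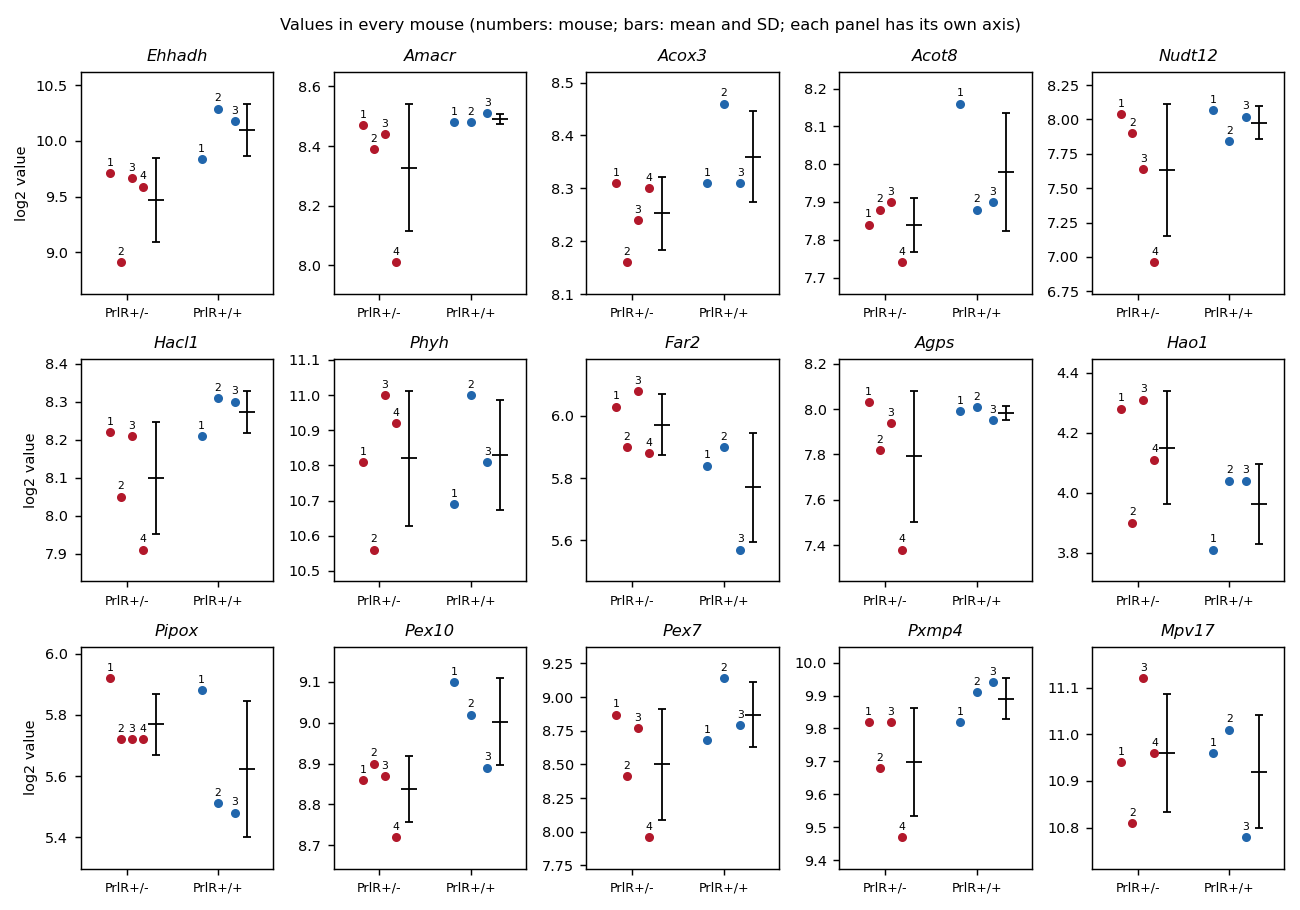
Log2 values (y axis, its own range in each panel) of 15 peroxisomal genes in every mouse, PrlR+/- in red and PrlR+/+ in blue, with the mouse number above each point and the mean and SD as black bars. Ehhadh is the member with PrlR+/- mouse 2 far below, while Amacr, Nudt12, Agps and Pex7 have mouse 4 far below.

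Genes that move acyl chains, carnitine and coenzyme A across or within the peroxisome had a median difference of -0.0333 over 11 members, 7 of them negative, and 0 passed. Acot8, a thioesterase that frees fatty acids from coenzyme A, was at 7.84, 7.88, 7.90 and 7.74 in PrlR+/- 1 to 4, against 8.16, 7.88 and 7.90 in PrlR+/+ 1 to 3. PrlR+/+ 1 alone lay above the other mice, and the difference was -0.14 ± 0.09 (SE), or -0.05 without it. Nudt12, a hydrolase of NADH and related nucleotides, was at 8.04, 7.90, 7.64 and 6.96 in PrlR+/- 1 to 4, against 8.07, 7.84 and 8.02 in PrlR+/+ 1 to 3. Its value in PrlR+/- 4 was the lowest by 0.68, and its difference of -0.34 ± 0.24 (SE) became -0.117 without that mouse. Abcd3, the ATP-driven importer of branched chains, Slc25a17, the carrier of coenzyme A and other cofactors, and Crot, which makes carnitine esters for export, differed by -0.22 ± 0.18, -0.18 ± 0.15 and -0.21 ± 0.16. Each of these 3 was also lowest in PrlR+/- 4, and without it they were at -0.06, -0.05 and -0.0967. Abcd2, a relative of the adrenoleukodystrophy transporter, Crat, the carnitine acetyltransferase, Nudt7 and the dim thioesterase gene Acot4 had positive differences between 0.05 and 0.17. Without PrlR+/- 4, Nudt7 was at 0.283 and Abcd2 at 0.293 (limma, unadjusted p = 0.0382, adjusted p = 1), with overlapping groups for both. Slc27a2, which activates very long chains, and Abcd4, a family member known for cobalamin transport in lysosomes, were at -0.03 and -0.02, and Abcd4 was at 0.00667 without PrlR+/- 4.

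Alpha-oxidation, which removes a single carbon from phytanic acid, was represented by its hydroxylase Phyh and its lyase Hacl1. Hacl1 was at 8.22, 8.05, 8.21 and 7.91 in PrlR+/- 1 to 4, against 8.21, 8.31 and 8.30 in PrlR+/+ 1 to 3, a difference of -0.18 ± 0.09 (SE, limma, unadjusted p = 0.0877, adjusted p = 0.99). PrlR+/- 1 lay above PrlR+/+ 1, so the groups overlapped, and without PrlR+/- 4 the difference was -0.113. Phyh was at 10.81, 10.56, 11.00 and 10.92 in PrlR+/- 1 to 4, against 10.69, 11.00 and 10.81 in PrlR+/+ 1 to 3. Its groups overlapped, although PrlR+/- 2 lay below every PrlR+/+ mouse. The 95% interval of its difference was -0.30 to 0.28, and the difference was -0.0433 without PrlR+/- 4.

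Ether lipid synthesis begins in the peroxisome with Gnpat and Agps, fed with fatty alcohols by the reductases Far1 and Far2. Agps was at 8.03, 7.82, 7.94 and 7.38 in PrlR+/- 1 to 4, against 7.99, 8.01 and 7.95 in PrlR+/+ 1 to 3. PrlR+/- 4 stood alone below the others, and the difference of -0.19 ± 0.15 (SE) became -0.0533 without it. Far2 was at 6.03, 5.90, 6.08 and 5.88 in PrlR+/- 1 to 4, against 5.84, 5.90 and 5.57 in PrlR+/+ 1 to 3, a difference of 0.20 ± 0.10 (SE, limma, unadjusted p = 0.0746, adjusted p = 0.99). PrlR+/- 2 equalled PrlR+/+ 2, and the gene lay below the level set for dim genes. With each mouse left out, the difference of Far2 ranged from 0.102 without PrlR+/+ 3 to 0.268 without PrlR+/+ 2. With array weights it was 0.288 (limma, unadjusted p = 0.0185, adjusted p = 0.818). Gnpat and Far1 were at -0.08 ± 0.08 and 0.00 ± 0.08, with 95% intervals of -0.27 to 0.11 and -0.17 to 0.18, and without PrlR+/- 4 at -0.0133 and 0.0467. Over the 4 genes 2 differences were negative and 2 positive, with a median of -0.0388, or 0.0167 without PrlR+/- 4.

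All 4 measured genes of oxidases and peroxide removal had positive differences, with a median of 0.141, or 0.182 without PrlR+/- 4, and 0 passed. Of these, 3 were dim, and 66.6% of all genes below the 40th percentile had positive differences. Oxidases grouped elsewhere did not all share the sign: Acox2, also dim, was positive at 0.03 and Acox3 negative at -0.11. Ddo, Hao2, Xdh and Uox, from a further list below, were at -0.308, -0.183, -0.119 and -0.0425, with Hao2 and Uox dim. Hao1, which oxidises glycolate in liver, was at 4.28, 3.90, 4.31 and 4.11 in PrlR+/- 1 to 4, against 3.81, 4.04 and 4.04 in PrlR+/+ 1 to 3. Pipox, an oxidase of sarcosine and pipecolic acid, was at 5.92 in PrlR+/- 1 and 5.72 in the 3 other PrlR+/- mice, against 5.88, 5.51 and 5.48 in PrlR+/+ 1 to 3. The groups overlapped for both, with differences of 0.19 ± 0.12 and 0.15 ± 0.11 (SE), and Dao, the oxidase of D-amino acids, was at 0.07 ± 0.06. Cat, which encodes catalase and was not dim, was at 9.50, 9.89, 9.70 and 9.25 in PrlR+/- 1 to 4, against 9.47, 9.39 and 9.49 in PrlR+/+ 1 to 3. PrlR+/- 4 had the lowest and PrlR+/- 2 the highest value of all mice. The difference of Cat was 0.14 ± 0.14 (SE), and without PrlR+/- 4 it was 0.247 (limma, unadjusted p = 0.0585, adjusted p = 1). The groups of Cat were then separate by no more than the last decimal, 9.50 against 9.49, and 3.54% of all genes had separate groups either way without that mouse.

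Peroxins had a median difference of -0.109 over 13 genes, with 11 negative and 2 positive, and 0 passed; without PrlR+/- 4 the median was -0.0767. Pex10, a ubiquitin ligase of the import machinery, was at 8.86, 8.90, 8.87 and 8.72 in PrlR+/- 1 to 4, against 9.10, 9.02 and 8.89 in PrlR+/+ 1 to 3. PrlR+/- 2 lay just above PrlR+/+ 3, and the difference was -0.17 ± 0.08 (SE, limma, unadjusted p = 0.0611, adjusted p = 0.99), with a range of -0.222 to -0.118 when each mouse was left out. Its partner ligase Pex2 was at -0.16 ± 0.18, or -0.0167 without PrlR+/- 4. Pex7, the receptor that imports the thiolases and a few other enzymes, was at 8.87, 8.41, 8.77 and 7.96 in PrlR+/- 1 to 4, against 8.68, 9.14 and 8.79 in PrlR+/+ 1 to 3. The lowest value was that of PrlR+/- 4, and the difference of -0.37 ± 0.23 (SE) became -0.187 without it.

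The main import receptor gene Pex5 and the docking genes Pex13 and Pex14 differed by -0.06 ± 0.08, -0.11 ± 0.14 and 0.00 ± 0.07. Pex6 and Pex26, part of the complex that recycles the receptors, were at 0.11 ± 0.09 and -0.08 ± 0.06, and Pex6 was at 0.0367 without PrlR+/- 4. Pex3, Pex16 and Pex19, which insert membrane proteins, were at -0.02 ± 0.09, -0.03 ± 0.07 and -0.25 ± 0.20, and Pex19 was lowest in PrlR+/- 4. Without that mouse they were at 0.01, -0.0633 and -0.0867, and Pex14 was at 0. Pex11a and Pex11g, which promote elongation and division of the organelle, were at -0.17 ± 0.17 and -0.11 ± 0.14, and Pex11g was at -0.04 without PrlR+/- 4. Pex11a, another PPAR-alpha target in rodent liver, was at 8.99, 8.89, 9.57 and 9.19 in PrlR+/- 1 to 4, against 9.18, 9.51 and 9.30 in PrlR+/+ 1 to 3. As for Ehhadh, its lowest value was in PrlR+/- 2, but PrlR+/- 3 had the highest value of all mice, so the groups overlapped.

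Of the other membrane proteins, Pxmp4 was at 9.82, 9.68, 9.82 and 9.47 in PrlR+/- 1 to 4, against 9.82, 9.91 and 9.94 in PrlR+/+ 1 to 3. A pair of PrlR+/- mice equalled PrlR+/+ 1, and the difference was -0.19 ± 0.10 (SE, limma, unadjusted p = 0.0864, adjusted p = 0.99), or -0.117 without PrlR+/- 4. Mpv17, now known mainly as a protein of the inner mitochondrial membrane, was at 10.94, 10.81, 11.12 and 10.96 in PrlR+/- 1 to 4, against 10.96, 11.01 and 10.78 in PrlR+/+ 1 to 3, with overlapping groups. Pxmp2, a channel of the peroxisomal membrane, was dim and differed by -0.04 ± 0.15, or -0.15 without PrlR+/- 4.

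Many members had their lowest value in the same mouse. PrlR+/- 4 held the lowest value of all 7 mice, with no tie, for 24 of 48 members, or 50%, against 17.8% of all genes and 26.2% of genes above the 40th percentile. The shares were 0% in PrlR+/- 1, 16.7% in PrlR+/- 2 and 12.5% in PrlR+/- 3. In PrlR+/+ 1 to 3 they were 2.08%, 2.08% and 16.7%. The gap to the next lowest mouse had a median of 0.26 over the 24 genes and was largest for Nudt12, Decr2, at 9.34 against 9.9 or more elsewhere, and Pex19, at 9.66 against 10.14 or more. Of the 11 genes of acyl, carnitine and coenzyme A handling, 8 were lowest there, and so were 5 of 11 beta-oxidation enzymes, 5 of 13 peroxins and 3 of 4 ether lipid genes. The mean over all members was 8.367, 8.279, 8.341 and 8.137 in PrlR+/- 1 to 4, against 8.359, 8.381 and 8.335 in PrlR+/+ 1 to 3. It varied with an SD of 0.103 between PrlR+/- and 0.023 between PrlR+/+ mice.

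**Figure D3:**
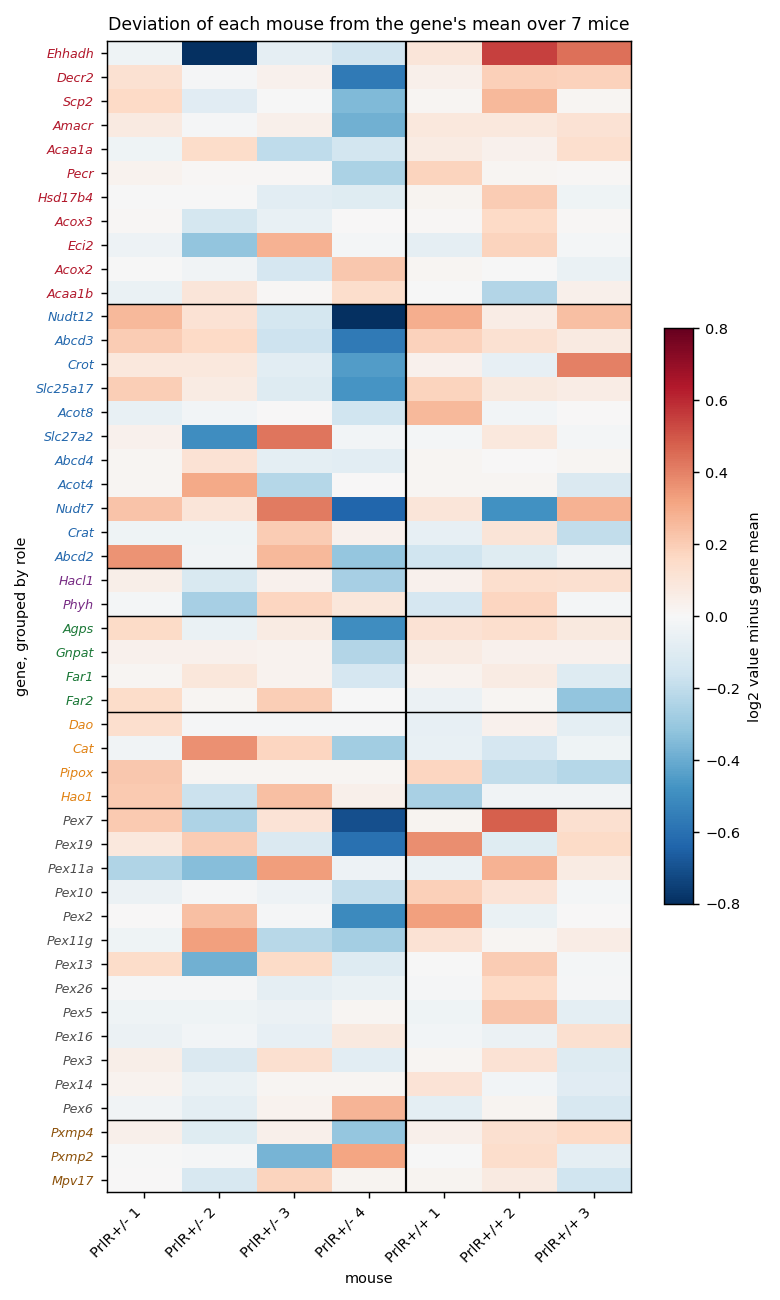
Deviation of each log2 value from the mean of its gene over the 7 mice (colour) for the 48 measured genes (rows, grouped by role, in the order of the plot of differences) and the mice (columns, PrlR+/- left of the black line). The column of PrlR+/- 4 holds the lowest value of 24 genes, and the darkest cell of Ehhadh is in PrlR+/- 2.

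**Figure D4:**
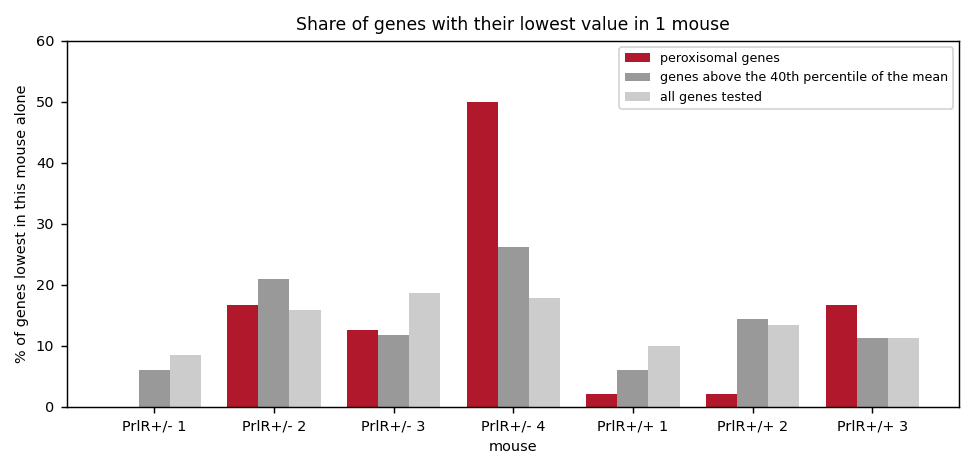
Percent of genes whose lowest value lay in 1 mouse alone (y axis), for each mouse (x axis), among the peroxisomal genes (red), genes above the 40th percentile of the mean (dark grey) and all genes tested (light grey). PrlR+/- 4 reaches 50% of the peroxisomal genes and PrlR+/- 1 has 0%.

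The mean of the 8 beta cell markers was also lowest in that mouse, at 11.89 against 12.10 to 12.15 in the other PrlR+/- mice and 12.03 to 12.20 in PrlR+/+ mice. Mafa, a transcription factor of mature beta cells, was at 9.54 there and between 10.32 and 10.36 in the 6 other mice. Slc2a2, the glucose transporter of mouse beta cells, was at 11.31 there, against 11.94 to 12.18 in the other PrlR+/- and 12.16 to 12.39 in PrlR+/+ mice. These 2 were chosen after their values were seen, and the 6 other markers were not lowest there: Ins2, the insulin gene, was at 13.33 there, against 13.23 to 13.30 in the other PrlR+/- and 13.28 to 13.36 in PrlR+/+ mice. Pdx1 and Ucn3 were lowest in PrlR+/+ 2, at 10.64 and 12.11. Among the PrlR+/- mice they were lowest in PrlR+/- 4, at 10.85 and 12.16. For Ins2, Nkx6-1, G6pc2 and Iapp no PrlR+/- mouse lay above PrlR+/- 4. The part of these levels in the peroxisomal values was not tested. Without PrlR+/- 4 the members had 32 negative differences, 15 positive ones and 1 of 0, with a median of -0.0533; Acox2, Abcd4 and Pex3 changed sign. The median of all genes then moved to 0 and the share of negative differences among them to 48.6%. Over the 7 fits that each left out 1 mouse, 29 to 36 members were negative, against 42.3% to 48.6% of all genes, and the median of the members ranged from -0.0975 to -0.05.

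**Figure D5:**
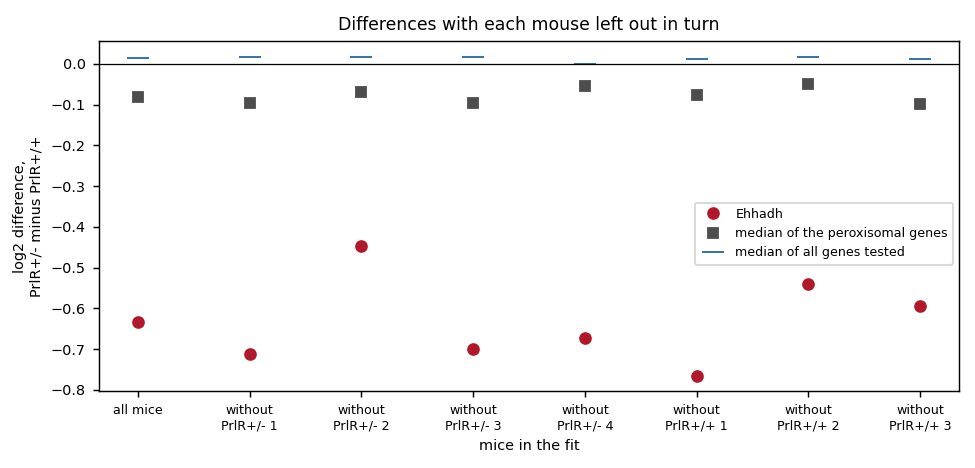
Log2 difference between PrlR+/- and PrlR+/+ islets (y axis) with all mice and with each mouse left out (x axis), for Ehhadh (red circles), for the median of the peroxisomal genes (grey squares) and for the median of all genes (blue dashes). Ehhadh stays between -0.765 and -0.447 and the median of the peroxisomal genes between -0.0975 and -0.05.

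Other genes of the pathway were taken from 3 further lists. Of 46 other peroxisomal genes 38 were measured, with a median difference of -0.0404, 23 negative and 15 positive differences and 0 that passed. Ddo, the oxidase of D-aspartate, was the 1 gene of this list with an unadjusted p under 0.05: it was at 8.19, 8.14, 7.94 and 8.11 in PrlR+/- 1 to 4, against 8.19, 8.63 and 8.39 in PrlR+/+ 1 to 3. Its groups met at a shared value, and its difference was -0.31 ± 0.11 (SE, limma, unadjusted p = 0.0284, adjusted p = 0.99). Over all genes, 2.2% had an unadjusted p under 0.05. Acnat2, next in this list by p, was at 0.17 ± 0.08 (SE, limma, unadjusted p = 0.0615, adjusted p = 0.99). The groups of Acnat2 overlapped, and it lay below the level set for dim genes. PrlR+/- 4 was lowest alone for 11 of these 38 genes, or 28.9%.

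Of 27 PPAR receptors and their known targets outside the peroxisome 26 were measured, with a median of -0.0338, 14 negative and 12 positive differences. An unadjusted p under 0.05 was found for 0 of them, against 2.2% of all genes. The smallest unadjusted p values belonged to Vnn1, a pantetheinase, at 0.16 ± 0.07 (SE), and Acadm, the mitochondrial dehydrogenase of medium chains, at -0.18 ± 0.09. The receptor gene Ppara itself was at 6.06, 6.27, 6.24 and 6.24 in PrlR+/- 1 to 4, against 6.24, 6.26 and 6.24 in PrlR+/+ 1 to 3, so the groups overlapped. Ppara and Vnn1 both lay below the level set for dim genes, so their values may not reflect transcript levels.

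Of 21 genes that remove peroxide and superoxide outside the peroxisome 20 were measured, with a median of 0.00625, 10 negative and 10 positive differences and 0 that passed. An unadjusted p under 0.05 was found for 3 of the 20, where the share over all genes was 2.2%. Gpx8, a glutathione peroxidase family member of the endoplasmic reticulum, was at 0.63 ± 0.23 (SE). Prdx3, the mitochondrial peroxiredoxin, was at -0.28 ± 0.10, and Sod1, the cytosolic superoxide dismutase, at -0.23 ± 0.10. The groups of all 3 overlapped, Gpx8 being at 7.87 in PrlR+/- 4 and 7.98 in PrlR+/+ 1. Prdx3 was at 9.65, 9.48, 9.51 and 9.25 in PrlR+/- 1 to 4, against 9.79, 9.84 and 9.63 in PrlR+/+ 1 to 3, and PrlR+/- 4 was lowest for it and for Sod1. The adjusted p of these 3 by limma was 0.99. Separate groups occurred in these lists for Txnrd2, the mitochondrial thioredoxin reductase, at -0.27 ± 0.14 (SE), and for Fgf21, a secreted PPAR-alpha target, at 0.15 ± 0.07 and below the level set for dim genes, both named after their values were seen. Of all genes, 2.24% had separate groups either way. The groups of Txnrd2 met within the last decimal, PrlR+/- 1 and 2 being at 7.62 and PrlR+/+ 2 at 7.63.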

How the data were processed

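Transcripts were measured in the islets of 7 pregnant mice. The authors deposited log2 values, 1 column per mouse; that the scale is log2 was judged from their range. They used Affymetrix Expression Console 1.2.0.20, per the submitters' processing notes, with summarization and normalization not given in the sources used here. Per the labels' protocols 250 ng of total RNA with an integrity number above 8.5 was labelled for each array. Arrays have no read depth, and their number limits the precision. Scan dates and batches were not analysed here.

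The source labels gave the groups, each mouse being a replicate. The genotype tag of the controls reads wild type but also carries the name of the null line, and the sample codes differ in form between the genotypes for a reason the labels do not give. Of 35556 probe sets 21789 had 1 symbol in the platform annotation, and the highest-mean probe set per gene gave 19938 genes, with no filter and no further normalization. limma 3.58.1 (lmFit, eBayes) in R 4.3.3 was fitted over all genes, 2-sided, with a threshold of 0.05 on the Benjamini-Hochberg adjusted p, after a test on simulated data. Errors of differences are limma's moderated SE. Motifs were searched with Python 3.11.15 in RefSeq promoter windows, and 9 members had none.

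The members, roles and lists were chosen with earlier results of these data known. Values in every mouse are given for Ehhadh, for members with an unadjusted p under 0.05 or separate groups, and for the 2 members of smallest p in each role. Of each further list, genes with an unadjusted p under 0.05 are named or, where there were fewer than 2, the 2 of smallest p. Hsd17b4, Cat, Pex11a, Pex16, Hao2, Xdh, Uox, Mafa, Slc2a2 and Ppara were added once their values had been seen. The alternatives changed the variance model, array weights, scaling, dim-gene filter, probe set summary, covariate, replicate block, mice or threshold, one at a time, except that the replicate block also removes the weight of PrlR+/- 4, whose number no PrlR+/+ mouse shares. Same-numbered mice were not treated as pairs in the main analysis. Their deviations from the group means correlated at 0.0896, -0.386 and -0.0287, which cannot show whether the numbers pair the mice.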

Additional observations from a re-analysis of the deposited data

Results flagged for a closer look

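Within the 4 PrlR+/- mice, 7 of 48 members had a value set far from the others by Dixon's test, which chance gives in about 1 of 20 groups. That was 14.6% of the members, and the same test marked 15% of all genes. Ehhadh was at 8.91 in PrlR+/- 2, with the next mouse at 9.59. In PrlR+/- 4, Pecr was at 8.84, with the next at 9.1, and Gnpat at 9.06, with the next at 9.32. The other 4 were small steps near the rounding of the values or in dim genes: Dao at 5.44 and Pipox at 5.92 in PrlR+/- 1, where the 3 other mice shared 5.3 and 5.72, Pex5 at 8.01 in PrlR+/- 4 and Pex14 at 9.1 in PrlR+/- 2.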

How the results depend on the processing

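With each alternative, 0 members passed, with smallest adjusted p values between 0.818 and 1, and so they did at a threshold of 0.1. Ehhadh kept a negative difference throughout, from -0.532 with array weights to -0.673 with the replicate block, and from -0.765 to -0.447 with each mouse left out. The count of members with an unadjusted p under 0.05, 1 in the main analysis, was 4 with array weights, or 8.33% against 5.68% of all genes, 2 with the acinar covariate, or 4.17% against 2.94%, and 0 with the replicate block, against 1.71%. It was 1 to 4 with a mouse left out, against 1.24% to 3.98% of all genes. In the block fit Ehhadh had an unadjusted p of 0.0696; PrlR+/- 4 has no same-numbered partner, so that fit draws no difference from it, and the estimates equal those without that mouse. Members with separate groups, 2 in the main analysis, numbered 1 with quantile normalization and 1 with median centring, where 3.57% and 2.34% of all genes were separate, and 2 to 6 with a mouse left out, against 3.54% to 10.3% of all genes, since fewer mice make separation easier. The median of the members was -0.0808 and stayed negative, from -0.0296 with array weights to -0.113 with either filter on dim genes. It was -0.08 without Ehhadh. Phyh, near 0, reversed to 0.00688 with array weights and 0.00108 with the acinar covariate, and ranged from -0.0825 to 0.0767 with a mouse left out, and Mpv17 from -0.0275 to 0.09. The cause of these shifts was not tested. Every member had a single probe set, so averaging probe sets left its values as they were.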

Other observations

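Ehhadh was lowest in PrlR+/- 2 and highest in PrlR+/+ 2, and the list of PPAR receptors and targets outside the peroxisome was examined for the same extremes after its values were seen. Of its 26 measured genes, 7 were lowest in PrlR+/- 2 alone, or 26.9% against 15.9% of all genes and 20.9% of genes above the 40th percentile. The share was 35% in the list of peroxide and superoxide removal, 21.1% among the other peroxisomal genes and 16.7% among the members. In PrlR+/+ 2 alone 13 were highest, or 50% against 13.6% of all genes, where the shares of those 2 other lists were 25% and 23.7%. Of the 48 members, 10 were highest in that mouse alone. Cpt1a, the entry enzyme of mitochondrial fat oxidation, was at 10.44, 9.76, 11.07 and 10.85 in PrlR+/- 1 to 4, against 10.27, 11.08 and 10.67 in PrlR+/+ 1 to 3. Slc25a20, the carnitine carrier of mitochondria, was at 8.62, 7.99, 8.68 and 8.37 in PrlR+/- 1 to 4, against 8.43, 9.02 and 8.78 in PrlR+/+ 1 to 3. Both had overlapping groups. Cpt1a and Slc25a20 were chosen after their values were seen. The median deviation of the list from its gene means was -0.003, -0.121, 0.049 and -0.003 in PrlR+/- 1 to 4, against -0.114, 0.154 and 0.004 in PrlR+/+ 1 to 3.

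Ties were common: 10 of 48 members, or 20.8%, had the same value to 2 decimals on at least 3 arrays, as did 34.5% of all genes. Gnpat and Pex26 each had 1 value on 4 of the 7 arrays.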
